A study of Mus musculus with 8 samples.

Results

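Ttr, Enpp2, Folr1 and Kl, 4 genes expressed at high level by the epithelium of the choroid plexus, were followed through the mouse hippocampus with single-nucleus RNA sequencing. They are 4 of the 30211 genes listed in each library. Ttr was selected because it was among the genes with the lowest J20;GKO to J20;WT ratio in excitatory neurons, and the other 3 genes were added as choroid plexus genes. That ratio is therefore given as a description, with no test. The question was whether Ttr spread evenly over the cell types of a library, as free RNA captured along with every nucleus would.

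The 8 libraries came from mice labelled C57BL/6, which the methods name more closely as C57BL/6N. There were 3 WT and 3 GKO mice at 7 mo, while at 6 mo there was a J20;WT mouse (1) and a J20;GKO mouse (1). GKO mice are GSAP -/-, with the gene for γ-secretase activating protein deleted throughout the body by a CMV-Cre driver, and J20 mice carry human APP with the Swedish and Indiana mutations under the PDGFB promoter. The J20;GKO mouse combines both alleles, and each J20 genotype is a single mouse, so the spread between mice of these genotypes is unknown.

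The choroid plexus is a folded sheet of epithelium in the brain ventricles that makes cerebrospinal fluid, and it lies beside the hippocampus. Ttr encodes transthyretin, which carries thyroid hormone and, with retinol binding protein, retinol, and its transcript is among the most abundant of that epithelium. Enpp2 encodes autotaxin, the secreted enzyme that makes lysophosphatidic acid, and is also a gene of myelinating oligodendrocytes. Folr1 encodes folate receptor alpha, which moves folate across the epithelium, and Kl encodes klotho, a coreceptor for the hormone FGF23 that is also made by some neurons.

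On GRCm38 (mm10) with GENCODE vM21, Ttr (ENSMUSG00000061808) lies at chr18:20665280-20674321 on the plus strand, and its exons cover 13.1% of the gene. Enpp2 (ENSMUSG00000022425) lies at chr15:54838901-54952892 on the minus strand, and exons cover 5.07% of it. Folr1 (ENSMUSG00000001827) lies at chr7:101858331-101870788 on the minus strand, and exons cover 18.4% of it. Kl (ENSMUSG00000058488) lies at chr5:150952607-150993817 on the plus strand, and exons cover 22.6% of it. Levels are therefore compared between cell types and libraries for each gene, not between genes.

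After filtering, 32041 of 33314 barcodes were kept as nuclei, 2731 to 5252 per library, a few more than the study states. The libraries held 21020159 to 43310978 unique molecular identifiers (UMIs, each a counted transcript molecule), with a median of 4579 to 6438.5 per nucleus. Any pair of libraries shared 2 to 21 cell barcodes, at most 0.549% of the smaller library. Gsap stood at 19.8 to 23.0 UMIs per 1000000 UMIs (CPM) in the 8 libraries, and since only internal exons are deleted in GKO mice, these UMIs do not check the genotype labels. Clusters were named from marker genes as 7 major types: 12553 excitatory neurons, 2237 inhibitory neurons, 2782 astrocytes, 7070 oligodendrocytes, 1177 oligodendrocyte precursor cells (OPCs), 2195 microglia and 381 mural cells or fibroblasts. Of the inhibitory neurons, 584 were of a cluster led by genes such as Isl1, Uncx and Ebf2, with 12 to 155 nuclei per library. The dates that the deposited data carry place the first WT mouse (WT_1) and the first GKO mouse (GKO_1) together, the J20;WT mouse apart, and the other 5 mice together.

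Choroid plexus nuclei were few and unevenly spread over the mice. A nucleus was called marker-rich when it held UMIs from at least 4 of 12 other choroid plexus genes, among them Kcnj13, Otx2, Clic6 and Tmem72, none of them among the 4 genes described here. WT_1 held 91 such nuclei, 1.73% of its nuclei, and GKO_1 held 65 (1.75%). J20;WT held 39 (1.17%) and GKO_3 held 25 (0.530%). The remaining 4 libraries held 3 (WT_2), 2 (WT_3), 1 (J20;GKO) and 0 of 4736 nuclei (GKO_2), and a count of 0 allows a share of up to 0.0779% there. The marker-rich nuclei thus fell into 4 libraries with 25 or more and 4 libraries with 3 or fewer, and WT and GKO mice were in both.

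Of the 226 marker-rich nuclei, 202 held UMIs from 6 or more of the 12 genes, and in these all 4 genes were abundant. Ttr was detected in 202 of 202, with 45 to 1557 UMIs per nucleus and a median of 436, at 40056 CPM over the set. Enpp2 was detected in all of them too, with a median of 50 UMIs and 4716 CPM. Folr1 was detected in 95.5% (315 CPM) and Kl in 88.6% (330 CPM). The label of the gene set therefore held for these nuclei. It was weaker at the edge of the rule: in the 24 nuclei with UMIs from 4 or 5 of the genes Ttr was detected in 75% at 5561 CPM, and in the 180 nuclei just outside, with 3, it was detected in 55.6% at 818 CPM. The single marker-rich nucleus of J20;GKO held no UMI of Ttr. A cluster of 240 nuclei carried the choroid plexus markers and contained 198 of the marker-rich nuclei, but its 24 nuclei from GKO_2 included none.

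**Figure D1:**
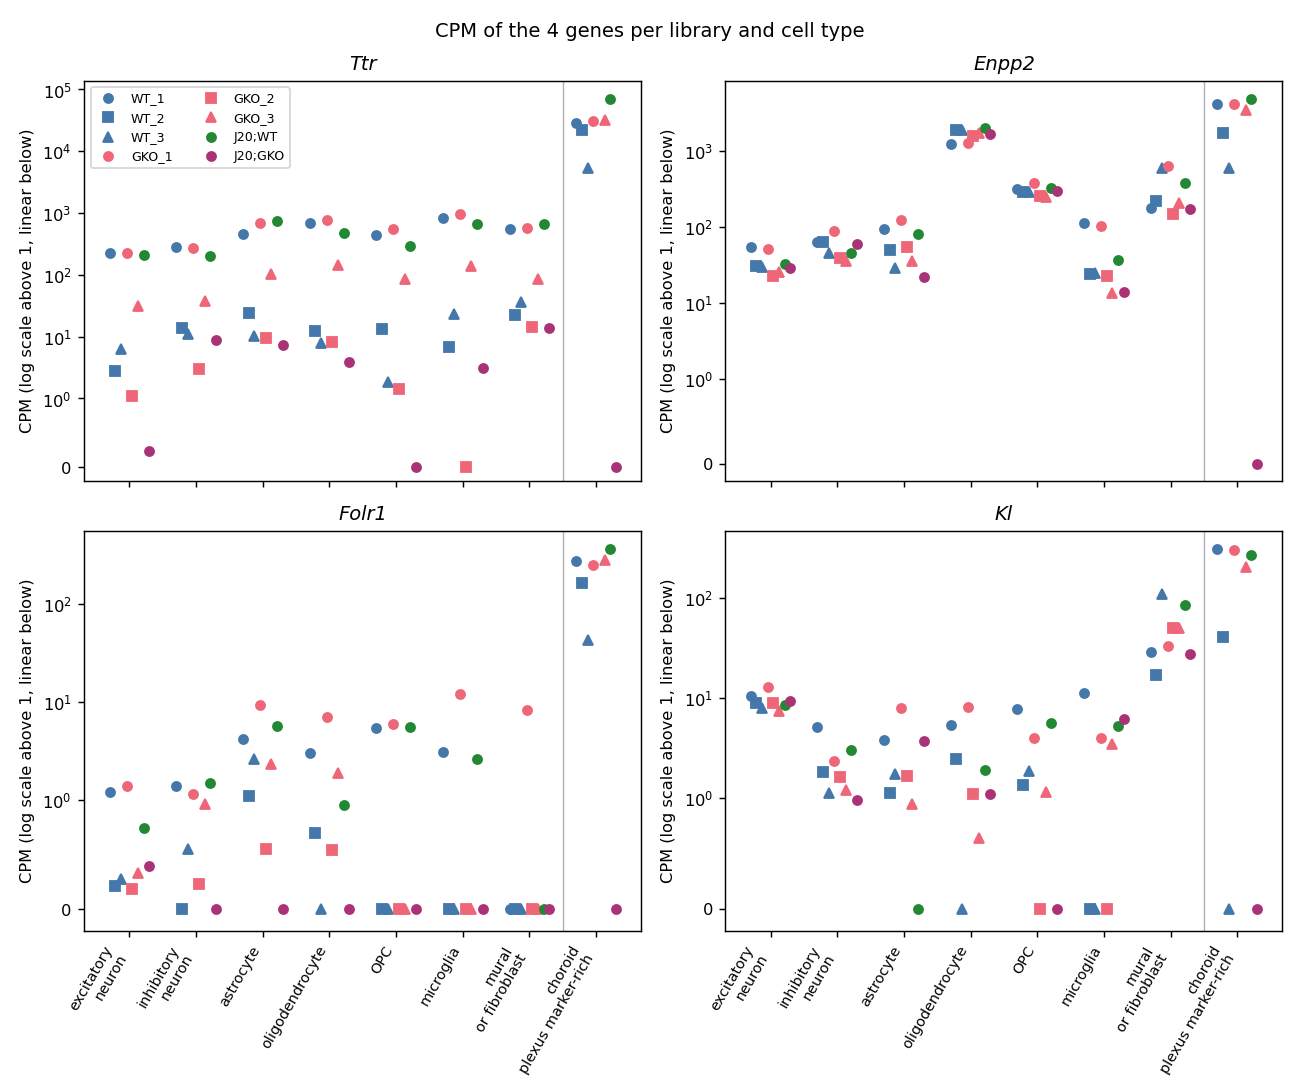
CPM of the 4 genes (y axes, log scale above 1 and linear below) in 7 cell types and in the marker-rich nuclei, 1 point per library, with marker-rich nuclei left out of the 7 types. Ttr separates the libraries within every type, whereas Enpp2 separates the types, with 1244 to 2036 CPM in oligodendrocytes of every library. The marker-rich point of J20;GKO is 1 nucleus and GKO_2 has none.

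Over whole libraries, Ttr differed between mice by orders of magnitude. It stood at 1107, 23.7 and 18.5 CPM in WT_1, WT_2 and WT_3. It stood at 1292, 2.34 and 284 CPM in GKO_1, GKO_2 and GKO_3. It stood at 1606 CPM in J20;WT but at 2.27 CPM in J20;GKO. The 4 libraries with 25 or more marker-rich nuclei were the 4 highest, and the WT and GKO ranges overlapped. In those 4 libraries, marker-rich nuclei held 69.9% (WT_1), 72.5% (GKO_1), 83.4% (GKO_3) and 81.9% (J20;WT) of all Ttr UMIs, and the rest lay in the other nuclei. The 3 marker-rich nuclei of WT_2 held 72.4%, with 482 of the 750 Ttr UMIs of that library in 1 nucleus. The 2 of WT_3 held 60.3%, with all 245 of their Ttr UMIs in 1 nucleus.

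In nuclei that were not marker-rich, Ttr divided the libraries in the same way. The mean was 2.79, 0.0450 and 0.0546 UMIs per nucleus in WT_1, WT_2 and WT_3, and 3.06, 0.0171 and 0.378 in GKO_1, GKO_2 and GKO_3. J20;WT stood at 1.85 and J20;GKO at 0.0187. The 4 libraries with 25 or more marker-rich nuclei had 0.378 or more and the other 4 had 0.0546 or less. Ttr was detected in 75.9% of the other nuclei of WT_1 and 76.2% of those of GKO_1, in 51.0% in J20;WT and 22.9% in GKO_3, but in only 1.17% to 2.96% in the remaining 4 libraries. Because the libraries fall into these separate clusters, no correlation was computed. With nuclei of 3 or more of the 12 genes and the whole choroid plexus cluster also left out, a choice made after seeing the data, the means were 2.62, 2.94, 0.360 and 1.51 in WT_1, GKO_1, GKO_3 and J20;WT, and 0.0547 or less in the others.

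The UMIs of Ttr outside the marker-rich nuclei were not all at the level of 1 or 2 per nucleus. In WT_1, 71 of these nuclei had over 20 Ttr UMIs, with up to 206, and together they held 20.8% of the Ttr outside. In GKO_1 57 such nuclei held 18.7%, and in J20;WT 29 such nuclei, with up to 480 UMIs, held 35.9%. In GKO_3 4 nuclei held 8.29%, and in WT_3 1 nucleus with 43 Ttr UMIs, an excitatory neuron, held 26.7%. What these nuclei are was not tested. The doublet caller marked under 0.06% of nuclei in WT_1, GKO_1 and J20;WT and is taken not to have worked there.

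**Figure D2:**
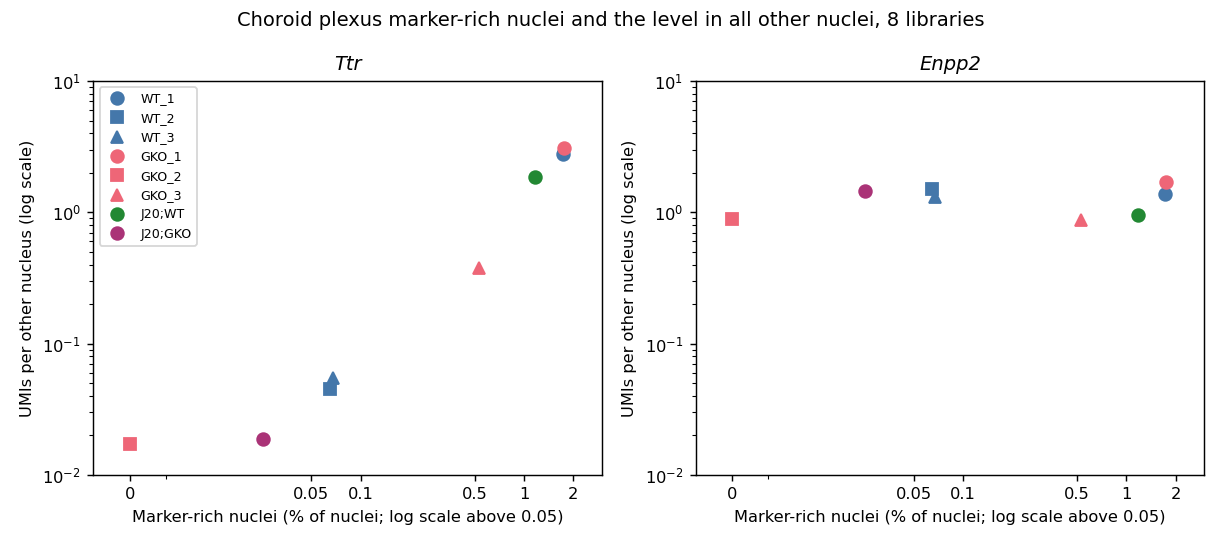
Mean UMIs of Ttr and Enpp2 per nucleus outside the marker-rich nuclei (y axes, log scale) against the percent of marker-rich nuclei (x axes, log scale above 0.05 and linear below), 1 point per library. Ttr lies between 0.378 and 3.06 in the 4 libraries at the right and at or under 0.0546 in the 4 at the left, whereas Enpp2 lies between 0.874 and 1.69 in all 8.

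Of the other 3 genes only Folr1 divided the libraries in this way. Kl stood at 0.0744, 0.0452 and 0.0474 UMIs per other nucleus in WT_1, WT_2 and WT_3, at 0.0861, 0.0496 and 0.0446 in GKO_1, GKO_2 and GKO_3, and at 0.0440 and 0.0590 in J20;WT and J20;GKO. WT_1 and GKO_1 were the highest, but J20;WT, with 39 marker-rich nuclei, was the lowest. Folr1 stood at 0.0176 and 0.0236 in WT_1 and GKO_1, at 0.00910 in J20;WT and 0.00469 in GKO_3, and at 0.00211 to 0.00282 in the other 4, the same split of the libraries as for Ttr. The summed level of the 12 core genes outside the marker-rich nuclei did not follow the split, since it was 74.7 to 89.1 CPM in 7 libraries and 123 CPM, the highest, in J20;GKO. Car12 alone stood at 73.6 CPM in excitatory neurons, while Aqp1, Kcne2, Cldn2 and Tmem72 were below 1 CPM in all 7 types.

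Within a library, whether Ttr looked even over cell types depended on the scale. In WT_1 it stood at 227 CPM in excitatory neurons, 278 in inhibitory neurons, 450 in OPCs, 451 in astrocytes, 557 in mural cells or fibroblasts, 696 in oligodendrocytes and 840 in microglia, a range of 3.70 times. As UMIs per nucleus the same nuclei gave 3.30, 4.00, 2.90, 2.38, 2.34, 1.75 and 2.29, a range of 2.28 times with neurons now at the top. The mean depth of a nucleus differed 5.77 times between these types. In GKO_1 the range over types was 4.35 times in CPM and 2.16 times per nucleus, and in GKO_3 it was 4.77 and 2.12 times. In J20;WT it was 3.78 and 3.12 times, with astrocytes the highest on both scales at 755 CPM and 3.08 UMIs per nucleus. However, 345 of the 668 Ttr UMIs in these 217 astrocytes lay in 1 nucleus, and their rank on both scales and the range of 3.12 times rest on it.

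Ttr was found in every one of the 7 types of these 4 libraries, neurons and microglia included. In WT_1 it was detected in 83.4% of excitatory neurons, 83.9% of inhibitory neurons, 74.0% of astrocytes, 67.8% of oligodendrocytes, 79.7% of OPCs, 69.6% of microglia and 75.7% of mural cells or fibroblasts. The share was highest in the deepest types and differed 1.24 times. The median depth of these nuclei was 12497.5 and 12593 UMIs in the neurons, 4393 in astrocytes, 2343 in oligodendrocytes and 2151 in microglia. With each nucleus thinned to 1000 UMIs, which left 4751 of the 5161 nuclei, the order turned. Ttr was then detected in 19.2% of excitatory neurons, 23.9% of inhibitory neurons, 33.2% of astrocytes, 41.3% of oligodendrocytes and 46.3% of microglia. In the 4 libraries with few marker-rich nuclei the counts were low, and the range of Ttr over types was wider. WT_2 held 2.73 to 23.8 CPM over the types, WT_3 1.84 to 37.1, GKO_2 0 to 14.3 and J20;GKO 0 to 13.8, on 47 to 202 Ttr UMIs over the 7 types of each. Per nucleus the range over types was 12.6 times in WT_2 and 15.5 times in WT_3. The lowest types held 4 Ttr UMIs (microglia of WT_2) and 1 Ttr UMI (OPCs of WT_3), so these ranges are not set apart from counting error. In WT_2 excitatory neurons held 2.73 CPM (95% exact Poisson interval 2.04 to 3.59), below inhibitory neurons at 14.0 CPM (10.5 to 18.3) and astrocytes at 23.8 CPM (17.2 to 32.0). The interval of excitatory neurons lies below the other 2, which overlap each other, and all of them cover counting error only. Of the 323 inhibitory nuclei of WT_2, 133 were of the cluster led by genes such as Isl1, and its part was not tested.

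Over the 8 mice, with mouse as a block, the difference between the 7 types was tested by edgeR's quasi-likelihood F test on counts summed per mouse and type, with Benjamini-Hochberg adjustment. It called 13581 of 13967 genes (97.2%), so the 3 of 3 tested members called are near the share of all genes. The types were clustered from other genes of the same nuclei, with the choroid plexus genes withheld, and so the test is not one of types found independently. This fit kept the marker-rich nuclei that clustered with a type. Ttr was higher than in excitatory neurons by 0.52 (log2) in inhibitory neurons, 0.88 in OPCs, 1.63 in microglia, 1.71 in oligodendrocytes, 1.74 in astrocytes and 1.89 in mural cells or fibroblasts (adjusted p = 7.9e-09). The spread of 1.89 between its lowest and highest type was at percentile 48.7 of the spreads of all genes tested, whose median was 1.96. Without the marker-rich nuclei mural cells or fibroblasts stood at 1.35 and microglia, at 1.82, were the highest type, and without GKO_1 mural cells or fibroblasts stood at 1.30. With clusters made without integration, inhibitory neurons stood at -0.06 in place of 0.52. A cluster led by genes such as Isl1 and Ebf2 stayed unnamed there. Scaled by the number of nuclei in place of total UMIs, the differences became 0.71, -0.20, -0.61, -0.70, 0.35 and 0.34 in the same order, so that OPCs, microglia and oligodendrocytes turned from above to below excitatory neurons. The spread of Ttr was then 1.41, at percentile 1.1 of all genes, and 13962 of 13967 genes were called on that scale. The excitatory reference of both scales includes the J20 values that chose the gene. In the 6 WT and GKO mice alone, in CPM, the test called Ttr too (edgeR adjusted p = 1.8e-07), with a spread at percentile 49.8 of all genes, and no fit per nucleus was made in these 6 mice.

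Levels of Ttr were next compared between shallow and deep nuclei. A gene with a fixed number of UMIs per nucleus falls in CPM in proportion to depth, and a gene whose UMIs grow at the rate of depth keeps its CPM. Excitatory neurons of each library were sorted by depth into 5 groups of equal size. In WT_1 the mean depth of these groups went from 6152 to 27702 UMIs, while Ttr went from 2.29 to 4.16 UMIs per nucleus. In GKO_1 Ttr went from 2.25 to 4.61, in J20;WT from 1.04 to 2.83 and in GKO_3 from 0.322 to 0.449. In WT_1 Enpp2 went from 0.266 to 1.69 and Kl from 0.0614 to 0.240 over the same groups. In these 4 libraries Ttr grew with depth but by less than depth did. In WT_1 Ttr went from 372 to 150 CPM, Enpp2 from 43.3 to 61.0 CPM and Kl from 9.98 to 8.66 CPM. Neurons of several clusters are mixed in these groups, and the part of this mixing was not tested.

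**Figure D3:**
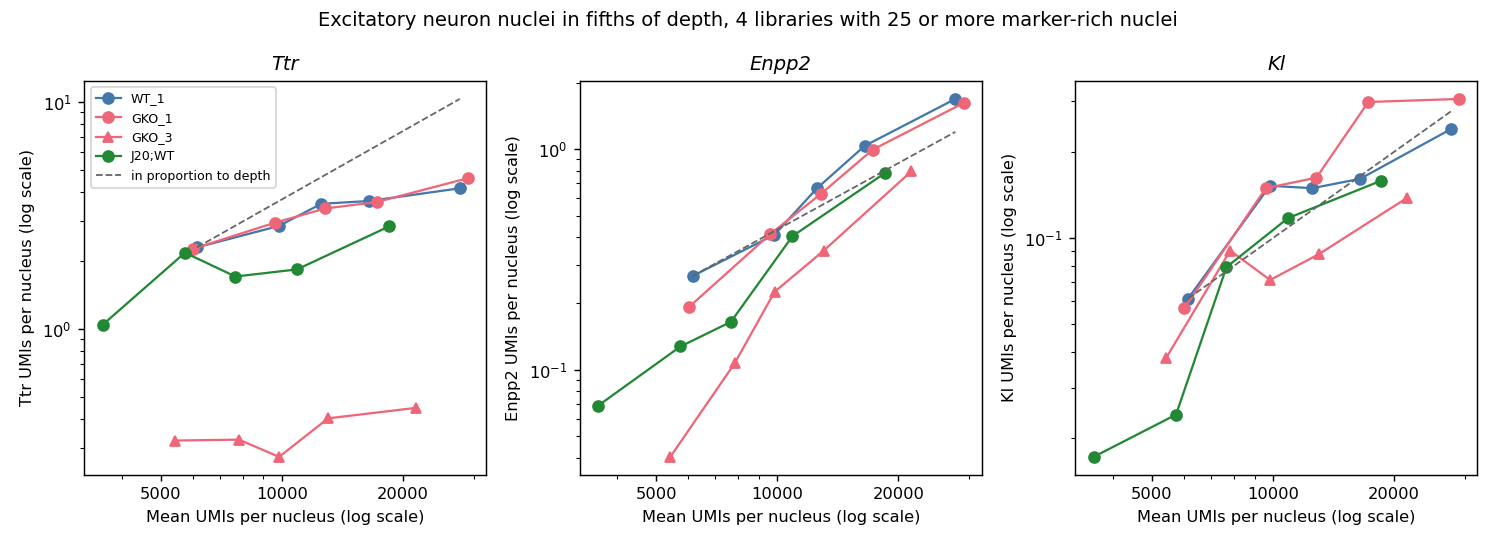
Mean UMIs per nucleus of Ttr, Enpp2 and Kl (y axes, log scale) in excitatory neurons sorted by depth into 5 groups of equal size, against the mean UMIs of the group (x axes, log scale), marker-rich nuclei left out, in the 4 libraries with 25 or more marker-rich nuclei. The dashed line starts at the first point of WT_1 and is proportional to depth. The 4.16 Ttr UMIs in the deepest group of WT_1 lie well below that line, and the 1.69 UMIs of Enpp2 lie above it.

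Over all nuclei that were not marker-rich, of all types together and unnamed nuclei included, Ttr was compared across a wider range of depth. An unnamed cluster of 1766 nuclei, with a median of 735.5 UMIs, held 465 nuclei in WT_1 and 404 in J20;WT. Types are thus mixed unequally over the bins, and the part of this was not tested. In WT_1, nuclei with under 1000 UMIs held 1.50 Ttr UMIs each and those with 20000 or more held 5.01, while the mean depth went from 683 to 27429, so Ttr fell from 2196 to 183 CPM. In GKO_1 it fell from 2906 to 163 CPM and in GKO_3 from 448 to 22.9 CPM. Ttr per nucleus in GKO_3 showed no steady growth, at 0.312, 0.320, 0.394 and 0.322 UMIs in the 4 bins up to 10000 UMIs and 0.592 at 20000 or more. In J20;WT it did not grow steadily either, with 1.96 UMIs per nucleus under 1000 UMIs, 1.01 at 1000 to 2000, 1.72 at 2000 to 5000 and 4.74 at 20000 or more. The 1.96 UMIs of its shallowest bin, 3047 CPM, lay in the 12.3% of those nuclei that had any Ttr.

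For the test, the nuclei of a type were split at the median depth in each mouse, and the log2 ratio of CPM in the shallower to that in the deeper nuclei was compared with 0 by a 2-sided exact sign-flip permutation test over 8 mice. Of 8 tests, for 4 genes in 2 types, 0 passed an adjusted p of 0.05 and 3 had an unadjusted p under 0.05. The ratio of Ttr in oligodendrocytes was 0.55 ± 0.56 (SD, n = 8), above 0 in 7 of 8 mice (exact p = 0.0156, adjusted 0.0625), where the 2 sets of nuclei differed 0.72 (log2) in depth. It was 0.29 in WT_1, -0.10 in GKO_1, 0.13 in GKO_3 and 0.55 in J20;WT, on 231 to 2655 Ttr UMIs. In the other 4 it was 0.32 to 1.75 on 7 to 35 Ttr UMIs, with GKO_2 at 1.75 on 15. In WT_3 12 Ttr UMIs returned the depth ratio of 0.77. The ratio of Ttr in excitatory neurons was 0.07 ± 0.79 (SD, n = 8), with an exact p of 0.81. It was 0.67 in WT_1, 0.66 in GKO_1, 0.77 in GKO_3 and 0.54 in J20;WT, and between -1.57 and 0.14 in the other 4, where J20;GKO at -1.57 rests on 3 Ttr UMIs. Without J20;GKO the mean was 0.31 (adjusted exact p = 0.25). Enpp2 in excitatory neurons was lower in the shallower nuclei in 8 of 8 mice, at -1.02 ± 0.53 (SD, n = 8; exact p = 0.0078, adjusted 0.0625). Without the marker-rich nuclei the tests of Ttr in oligodendrocytes (0.61) and Enpp2 in excitatory neurons (-1.02) passed, with an adjusted exact p of 0.0312 each. The first still rests in part on the 7 to 35 Ttr UMIs of WT_2, WT_3, GKO_2 and J20;GKO. Folr1 in excitatory neurons was higher in the shallower nuclei in 7 of 8 mice, at 1.01 ± 0.89 (SD, n = 8; exact p = 0.0234, adjusted 0.0625). It rests on 4 Folr1 UMIs each in WT_2, WT_3 and GKO_2, 5 in J20;GKO, which gave 2.82, and 8 to 37 in the others. With 0.5 added to each count, equal low counts return the depth ratio itself, as in WT_2, where 1.16 is both the difference in depth and the value for Folr1, so no direction is read from it. Excitatory Ttr of the J20 mice is the value that chose the gene, and in the 6 WT and GKO mice the ratios of Ttr were 0.27 in excitatory neurons and 0.58 in oligodendrocytes (adjusted exact p = 0.29 and 0.19).

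Among the 7 types Enpp2 was highest in oligodendrocytes in every library, below the 3447 to 4827 CPM of the marker-rich nuclei in the 4 libraries with 25 or more of them. In oligodendrocytes it stood at 1244, 1922 and 1929 CPM in WT_1, WT_2 and WT_3, at 1268, 1565 and 1738 CPM in GKO_1, GKO_2 and GKO_3, and at 2036 and 1672 CPM in J20;WT and J20;GKO. Excitatory neurons of the same 8 libraries held 22.9 to 55.9 CPM, and the ranges did not overlap. In the F test Enpp2 was 5.74 (log2) higher in oligodendrocytes, 3.01 higher in OPCs and 2.87 higher in mural cells or fibroblasts than in excitatory neurons (adjusted p = 9.4e-30), and its spread was at percentile 89.0 of all genes, or 77.7 per nucleus. Per nucleus these differences were 3.34, 1.86 and 1.39. Astrocytes and microglia, at 0.83 and 0.11 in CPM, stood at -0.57 and -2.12 per nucleus.

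The low Enpp2 levels of the other types differed between the libraries. Microglia held 115 and 103 CPM in WT_1 and GKO_1 and 13.8 to 36.8 CPM in the other 6 libraries. Astrocytes held 95.1, 126 and 81.4 CPM in WT_1, GKO_1 and J20;WT and 22.3 to 55.6 CPM in the other 5. Excitatory neurons of WT_1 and GKO_1 held 55.9 and 51.5 CPM, above the 22.9 to 33.3 CPM of the others. In these 3 types the libraries with the most marker-rich nuclei were the highest, and in oligodendrocytes WT_1 and GKO_1 were the lowest of the 8. The date carried by the data moves with this as well, so the part of each was not tested.

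Among the 7 types Kl stood highest in mural cells or fibroblasts, at 29.0, 17.1 and 111 CPM in WT_1, WT_2 and WT_3, 32.9, 50.1 and 49.9 CPM in GKO_1, GKO_2 and GKO_3, and 86.2 and 27.5 CPM in J20;WT and J20;GKO. These sums rest on 31 to 74 nuclei per library and have no order by genotype. Among the 2 clusters of this type, Kl stood at 58.9 CPM in the one led by Prg4, Slc6a13 and Foxd1 and at 3.67 CPM in the one led by Kcnj8, Higd1b and Vtn. Excitatory neurons held 7.38 to 13.0 CPM in the 8 libraries, and the 1996 nuclei of the cluster led by genes such as Lefty1, Fibcd1 and Wnt2 held 17.0 CPM. In the F test Kl was 1.91 (log2) higher in mural cells or fibroblasts than in excitatory neurons, and stood at -1.43 to -2.22 against them in the other 5 types (adjusted p = 2.3e-14), with a spread at percentile 77.5 of all genes. Per nucleus it was 0.44 higher in mural cells or fibroblasts, with a spread at percentile 65.1. In mean UMIs per nucleus excitatory neurons stood above mural cells or fibroblasts in WT_1, WT_2 and GKO_1 and below them in the rest.

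Folr1 was close to the limit of detection outside the choroid plexus nuclei. Excitatory neurons held 0.182 to 1.41 CPM and astrocytes 0 to 9.33 CPM, and in astrocytes GKO_1 (9.33), J20;WT (5.65) and WT_1 (4.19) were the highest. It was removed by the filter on low counts and so was not tested between types in the main analysis. With no filter its largest difference was 2.03 (log2), in astrocytes against excitatory neurons (edgeR adjusted p = 2.0e-05).

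RNA from 1 source alone would keep the counts of its genes in 1 ratio in every type of a library. Nuclei that make Enpp2 or Kl themselves would shift it, and the source was not tested. The UMIs of Enpp2, Folr1 and Kl were set against those of Ttr as a description. In the marker-rich nuclei there were 14.7, 13.2, 10.6 and 6.99 Enpp2 UMIs per 100 Ttr UMIs in WT_1, GKO_1, GKO_3 and J20;WT. In the cell types of WT_1 there were 24.6 in excitatory neurons, 23.1 in inhibitory neurons, 21.1 in astrocytes, 13.7 in microglia and 31.8 in mural cells or fibroblasts, but 71.5 in OPCs and 179 in oligodendrocytes. Excitatory neurons of GKO_1 gave 22.9 and those of J20;WT 16.2, but those of GKO_3 gave 85.3, and its inhibitory neurons gave 93.6. In GKO_3 the ratio in neurons was thus far from that of its marker-rich nuclei, and only microglia, at 10.0 on 8 Enpp2 UMIs, were near it. Oligodendrocytes gave 167, 1184 and 424 in GKO_1, GKO_3 and J20;WT. For Folr1 the marker-rich nuclei gave 0.957, 0.792, 0.864 and 0.521 UMIs per 100 Ttr UMIs in the same 4 libraries, and all other nuclei together gave 0.632, 0.770, 1.24 and 0.492. The ratio of Folr1 to Ttr was thus lower outside the marker-rich nuclei in 3 of these libraries and higher in GKO_3, on 22 to 91 Folr1 UMIs outside. For Kl the marker-rich nuclei of WT_1 gave 1.08 per 100 Ttr UMIs, its oligodendrocytes 0.777 and its excitatory neurons 4.63. In GKO_3 the marker-rich nuclei gave 0.628 and the excitatory neurons 24.0.

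In the test, the log2 ratio to Ttr in each type minus that in excitatory neurons was compared with 0 over the 8 mice, in 18 tests by a 2-sided exact sign-flip permutation test. These tests and the means below kept the marker-rich nuclei that clustered with a type, unlike the ratios above. In GKO_1 these nuclei brought excitatory Ttr from 3840 to 5660 UMIs. There were 9 tests with an adjusted p under 0.05, 4 for Enpp2 and 5 for Kl. Excitatory Ttr in the J20 mice, the value by which Ttr was chosen, is the reference of 2 of the 8 mice, so these tests are not independent of the choice and nothing is read from their p. J20;GKO, with 3 Ttr UMIs in its excitatory neurons, gave the lowest difference in most of them, and without it 8 passed. The 6 WT and GKO mice played no part in the choice, but 0 of 18 tests passed in them, since 6 mice allow no exact p under 0.0312 and no adjusted p under 0.0703 here. Their means are therefore a description. Enpp2 relative to Ttr differed from excitatory neurons by 3.68 (log2) in oligodendrocytes and 2.18 in OPCs, above 0 in 6 of 6 mice, and by -1.12 in astrocytes, below 0 in 6 of 6. In microglia the mean was -1.41, with 1 of 6 mice above 0. Kl relative to Ttr had means of -2.78 to -4.02 in inhibitory neurons, astrocytes, oligodendrocytes, OPCs and microglia, below 0 in 6 of 6 mice in each. For Folr1 the means were -0.31 to 0.68 with both signs in every type, and 4 to 37 Folr1 UMIs in excitatory neurons do not show that the ratio is the same.

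**Figure D4:**
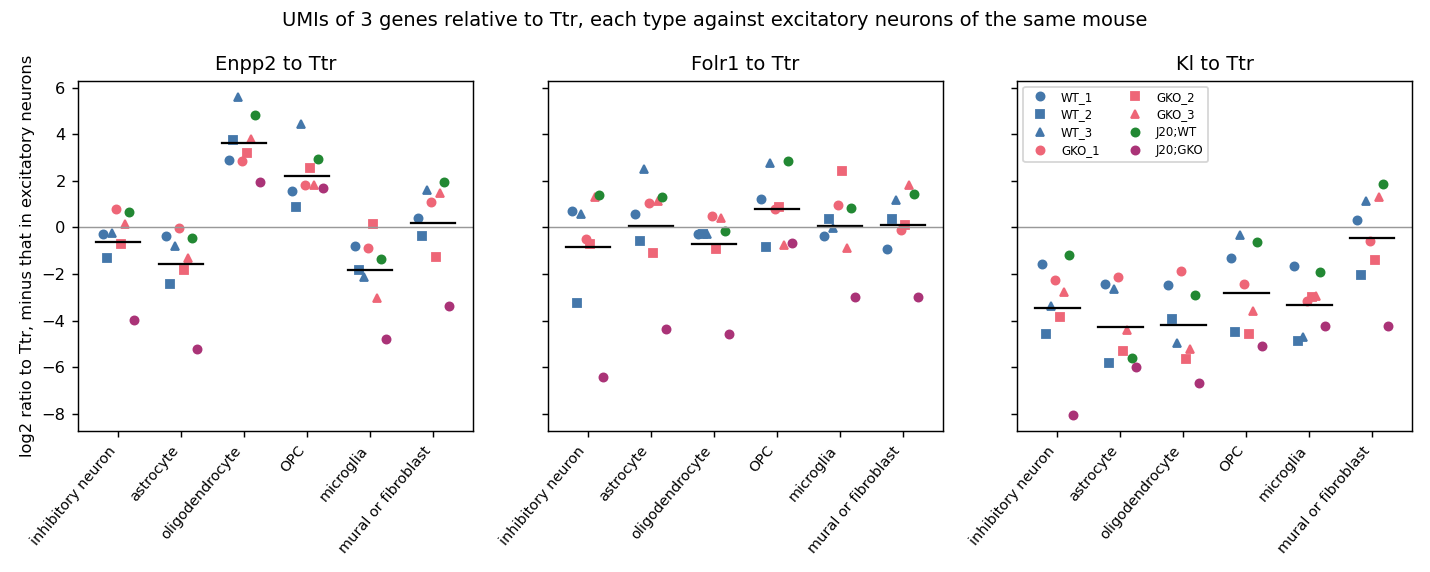
Log2 ratio of Enpp2, Folr1 and Kl UMIs to Ttr UMIs in 6 cell types minus that in excitatory neurons of the same mouse (y axis), 1 point per mouse with the mean as a black bar. Enpp2 lies above 0 in oligodendrocytes (mean 3.61) and OPCs (mean 2.21), and Kl lies below 0 in 5 types (means -2.80 to -4.29). Folr1 has both signs in every type, from -6.43 to 2.87. The means include the J20 excitatory Ttr that chose the gene, and that of J20;GKO is 3 UMIs. Marker-rich nuclei that clustered with a type are kept.

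GKO mice were compared with WT mice, 3 against 3, for each of the 7 types and over all nuclei. edgeR's quasi-likelihood test called 0% of genes in each of these comparisons (0 of 3832 to 0 of 19193 genes tested, with 77 to 254 genes at an unadjusted p under 0.05), and DESeq2 called 1 gene, in oligodendrocytes, which was none of the 4. Ttr differed by 0.57 (log2, GKO minus WT, SE 2.45) in excitatory neurons and 0.61 (SE 2.27) in oligodendrocytes, and by -0.30 to 1.83 in the other types, with edgeR adjusted p of 0.999 or more. The SE of Ttr was far above that of Enpp2, which differed by -0.06 (SE 0.41) there and by -0.13 (SE 0.21) in oligodendrocytes. Kl differed by 0.15 (SE 0.25) in excitatory neurons. Folr1 was tested over all nuclei alone and differed by 0.26 (SE 1.36).

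Outside the marker-rich nuclei the mean Ttr per nucleus was 0.963 ± 1.58 (SD, n = 3) in WT and 1.15 ± 1.66 (SD, n = 3) in GKO mice (2-sided exact permutation p = 0.7, where 3 against 3 allow no p below 0.1). The SD exceeded the mean in both genotypes. Within the first date the values were 2.79 (WT_1) and 3.06 (GKO_1). Within the other date they were 0.0450 and 0.0546 in WT mice and 0.0171 and 0.378 in GKO mice, which overlap. The exact permutation p was 0.4 for Enpp2 and 0.7 for Folr1 and for Kl. Leaving out WT_2, WT_3 or GKO_1 turned the difference in Ttr from 0.19 to -0.27, -0.27 and -0.77 UMIs per nucleus.

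In the J20 pair, the ratio of Ttr in excitatory neurons is the value by which the gene was chosen. J20;WT held 3198 Ttr UMIs in 1455 excitatory nuclei, or 236 CPM (95% exact Poisson interval 228 to 244, counting error only), and J20;GKO held 3 in 1039, or 0.235 CPM (0.0484 to 0.686). The log2 ratio, with 0.5 added to each count, was -9.75, and -9.56 without the marker-rich nuclei. The same ratio was -4.49 in inhibitory neurons, -6.55 in astrocytes, -6.87 in oligodendrocytes, -7.44 in microglia and -5.31 in mural cells or fibroblasts. In OPCs 104 UMIs stood against 0. Ttr was thus lower in J20;GKO in every type. Pairs of mice of 1 genotype, of which the WT and GKO groups give 6, differed in excitatory Ttr by 1.20 to 8.20 (log2, in size). J20;WT held 39 marker-rich nuclei and J20;GKO held 1, and the mice also differ in the date carried by the data, so genotype, date and choroid plexus nuclei cannot be told apart in this pair.

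For Enpp2 and Kl the ratio was near 0 in excitatory neurons. In excitatory neurons their log2 ratios (J20;GKO over J20;WT) were -0.26 for Enpp2, -0.85 for Folr1 and 0.10 for Kl. Folr1 went the way of Ttr where it could be counted: over all nuclei that were not marker-rich it had 30 UMIs in J20;WT against 6 in its GKO counterpart, a log2 ratio of -2.35, where that of Kl was 0.03. In inhibitory neurons 3 Folr1 UMIs stood against 0, and in astrocytes 5 against 0. For Enpp2 in oligodendrocytes it was -0.28, and in astrocytes, where J20;WT held 81.4 and J20;GKO 22.3 CPM, it was -1.83. With 1 mouse per genotype none of these was tested.

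Across the 56 sums of a library and a type, marker-rich nuclei left out, the genes most like each member by Pearson correlation of log2(CPM + 1) were ranked among 16555 genes, as a description, since the sums share libraries and depth. For Ttr these were Folr1 (0.71), 1500015O10Rik (0.59), Anapc1 (0.51), Magee1 (0.49) and 1700109H08Rik (0.48). The first 2 are choroid plexus genes. For Enpp2 they were Phldb1 (0.92), Pde8a (0.92), Fign (0.90), Tcf12 (0.89) and Arhgef10 (0.89). For Folr1 they were Ttr (0.71), Edc3, Hif3a, Gm45822 and Gm45184 (0.54 to 0.60). For Kl they were Arsi, Islr, Lum, Mgp and Fn1 (0.80 to 0.82), several of them matrix genes of fibroblasts.

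Genes that act with the members were counted in the same type test, where 97.2% of all genes were called. Of 8 genes of retinol and thyroid hormone carriage, 7 were tested and 7 called, with a median spread of 4.31 (log2) against 1.96 for all genes. Slco1c1, a thyroid hormone transporter, and Dio2, which activates the hormone, were both highest in astrocytes among the 7 types, 7.59 and 7.22 above excitatory neurons. The 56 endothelial nuclei were too few to be tested, and Slco1c1 stood at 1203 CPM in them against 560 CPM in astrocytes. Of 9 genes of lysophosphatidic acid signalling 6 were tested and called. Among them the receptor Lpar1 was highest in oligodendrocytes (4.75), where Enpp2 was highest too, Lpar6 was highest in microglia (5.23), and Plpp3, which degrades the lipid, was highest in astrocytes (7.18). Of 8 folate genes 8 were tested and 7 called, and Slc19a1, the reduced folate carrier, was highest in mural cells or fibroblasts (4.42). Of 8 genes of klotho and FGF23 signalling 3 were tested and called, all FGF receptors, with Fgfr3 highest in astrocytes (7.00).

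Of 19 other choroid plexus genes 9 were tested and called, with a median spread of 4.60, and of 4 hemoglobin genes, which mark blood, 3 were tested and called, with a median spread of 2.88. Hbb-bs, the most abundant of these, was higher than in excitatory neurons by 1.75 in astrocytes, 2.24 in oligodendrocytes, 2.19 in microglia and 2.88 in mural cells or fibroblasts, with the lowest level in excitatory neurons, as for Ttr in CPM. The 56 endothelial nuclei, which were not tested, held Hbb-bs at 455 CPM, against 49.8 CPM in mural cells or fibroblasts. Ttr stood at 370 CPM in them, against 395 CPM in microglia. Igfbp2 and Slc13a4 of the choroid plexus list were highest in mural cells or fibroblasts, by 7.83 and 5.20, and Car12 in excitatory neurons. No gene of any of these lists was called between GKO and WT mice.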

How the data were processed

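Single nuclei were isolated from hippocampus and sequenced on the 10X platform, 1 library per sample. Per the labels and the study's methods, the authors aligned reads with Cell Ranger to mm10 and deposited UMI counts per gene and barcode with no normalization. Whether intronic reads were counted is not given in the sources used here, and the submitters' processing notes also name Seurat 3.0 and R 3.6.2. Barcodes with 200 to 7500 genes and at most 5% mitochondrial UMIs were kept, as in the study. Each library was taken as 1 mouse, and p-values measure only the spread between these samples, which may be partly technical.

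Libraries were transformed with sctransform 0.4.2 and integrated in Seurat 5.3.0 on 3000 features, with the choroid plexus genes withheld. Integration corrected 30 principal components. Clustering used 20 neighbours and resolution 0.8. Names were given from marker lists where at least 3 markers were raised. A total of 3137 nuclei stayed unnamed. These names are rebuilt and are not the authors' annotation. Types with at least 20 nuclei in every mouse entered the tests. Scrublet in scanpy 1.11.5 called 4.06% to 6.29% of nuclei in 5 libraries and did not work in 3, and no nuclei were removed as doublets.

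CPM is the UMIs of a gene per 1000000 UMIs of that library and type. Counts were summed per mouse and type and tested in edgeR 4.0.16 (TMM, filterByExpr, robust quasi-likelihood fit, R 4.3.3), with Benjamini-Hochberg adjustment over all genes tested. A gene was called between GKO and WT where its adjusted p was below 0.05 and its log2 fold change exceeded 0.3 in either direction. DESeq2 1.42.0 was an alternative. Single values per mouse were compared with exact permutation or sign-flip tests in scipy 1.17.1, with a prior count of 0.5 in ratios. Intervals are exact at 95%, and a count of 0 was read against an upper limit or a floor of 3 counts. Intervals cover counting error only. The procedure was tested on simulated data. Deviations of same-numbered WT and GKO mice correlated at 0.67, 0.27 and 0.29 over genes. On that ground the numbers were used as a block in an alternative fit alone. The main GKO against WT fits held genotype only. Differently numbered mice correlated at 0.42 (WT_3 with GKO_2) and 0.28 (WT_2 with GKO_3), so the numbers do not tell pairs 2 and 3 apart.

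The 4 genes and all lists were chosen with earlier results of these data known. Genes named were the 4 members, at most 3 genes called per list by adjusted p, and the 5 genes most like each member. Other genes are named as members of the core list or as leaders of a cluster. Alternatives changed the normalization, tool, filter, scaling, clustering, nuclei and mice, 1 at a time. Gene positions came from GENCODE vM21.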

Additional observations from a re-analysis of the deposited data

Results flagged for a closer look

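The barcodes removed by the filters, 65 to 319 per library, entered none of the comparisons, and in GKO_1 and J20;WT they held the 4 genes at higher levels than in any WT library. Ttr stood at 2183 CPM in the removed barcodes of GKO_1 and 9176 CPM in those of J20;WT, against at most 1880 CPM in WT libraries, the highest being WT_1. Enpp2 stood at 308 and 842 CPM, against at most 283 CPM. Folr1 stood at 24.6 and 38.1 CPM, against at most 19.8 CPM. Kl stood at 27.6 and 39.8 CPM, against at most 20.0 CPM. Of the removed barcodes 42 in WT_1, 37 in GKO_1 and 9 in J20;WT were marker-rich, and 169, 128 and 19 exceeded the limit on genes per nucleus. Their part in these levels was not tested.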

How the results depend on the processing

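The difference in Ttr per nucleus between GKO and WT mice had no stable direction. Leaving out each mouse in turn gave -0.77 (without GKO replicate 1) to 1.10, with -0.27 without WT replicate 2 and -0.27 without WT replicate 3. The tests by depth passed in 2 of 8 cases without the marker-rich nuclei, and in 2 of 8 without nuclei of 3 or more core genes or of the choroid plexus cluster, an alternative chosen after seeing the data, against 0 otherwise. The ratio tests passed in 0 of 18 cases in the 6 WT and GKO mice, against 9. The causes were not tested, apart from the number of mice in the last case. With the replicate number as a block, the difference in Ttr was 0.19 with an exact p of 0.5 over 3 pairs, Ttr in excitatory neurons differed by 0.89 (SE 0.64, edgeR adjusted p = 0.999), and the pairing changed no call of the members. The other 65 values under alternatives for the main results kept their direction and their side of the threshold. The main results are counts of tests called, the GKO minus WT difference in Ttr and the J20 ratio. Contrasts between single types are not among them. Of these, Ttr against excitatory neurons changed sign in OPCs, microglia and oligodendrocytes per nucleus, and in inhibitory neurons without integration. Calls of the members between types held under every alternative run, and the J20 ratio of Ttr stayed between -8.82 and -9.75. Depth limits Folr1, with 217 UMIs over the sums of library and type, and Ttr in the 4 libraries with 47 to 202 UMIs.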
